A study of Mus musculus with 16 samples.

Results

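A set of 10 transcription factors that act in hair cells or in sensory neurons, Atoh1, Pou4f1, Pou4f2, Pou4f3, Gfi1, Lhx3, Barhl1, Insm1, Ikzf2 and Isl1, was followed in cultures of the mouse organ of Corti. They were looked up by gene symbol, and 9 of the 10 had a row in the authors' normalized table of 21220 genes. Insm1 was read from the count files alone. Of the 10, 8 passed the low-count filter and were tested among 17125 genes. The study compared wild-type cultures with cultures from mice heterozygous for a deletion of exon 4 of Rest, written Rest(+/deltaExon4) in the labels, each with FK228 or with solvent. FK228 (romidepsin) is an inhibitor of class I histone deacetylases, and REST is a repressor of neuronal genes that recruits such enzymes.

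All 4 groups came from C57BL/6 mice at postnatal day 0, and all cultures were kept for 3.5 days. FK228 was given at 2 nM, and the solvent was 0.1% DMSO. Both were present from day 1 to day 1.5 and again from day 3 to day 3.5 in vitro, and RNA was taken at the end of the second exposure. Each library held RNA pooled from 6 to 8 cultures, and there were 4 libraries in each group. Nothing in the labels says which animals or litters contributed to which pool, so the p-values measure the spread between pools. The wild-type solvent libraries carry the numbers 1, 2, 3 and 4, the wild-type FK228 libraries 1, 2, 4 and 7, the heterozygous solvent libraries 1, 2, 4 and 5, and the heterozygous FK228 libraries 2, 3, 4 and 5. Values are listed below in that order.

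Hair cells are the mechanoreceptors of the cochlea. ATOH1, a basic helix-loop-helix activator that pairs with E proteins, starts their differentiation. POU4F3 and the zinc finger repressor GFI1 act after it and are needed for hair cell survival. LHX3 (LIM homeodomain) and BARHL1 (BAR homeodomain) are expressed in differentiating hair cells, and INSM1 and IKZF2 (Helios) are linked to the outer hair cell identity, early and late respectively. POU4F1 (BRN3A) and ISL1 are factors of sensory ganglion neurons, including those of the spiral ganglion, and ISL1 is also present in the prosensory epithelium. POU4F2 (BRN3B) is best known from retinal ganglion cells.

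The libraries held between 12361027 and 23611571 counts in genes. Every heterozygous library held fewer than every wild-type library, at 12361027 to 15674930 against 16224586 to 23611571. The part of this depth difference in the genotype comparisons was not tested. Counts were expressed as CPM (counts scaled by TMM to a common library size), and per kilobase of exon where genes are compared with each other. All 20 hair cell markers had a count in every library, and all 18 neuron markers did in 14 of the 16. Any count sufficed, however low, so this rule cannot show that a cell type was present. By the same rule, 5 or 6 of the 6 markers of retinal ganglion and other brain neurons were detected in each library. The 20 hair cell markers summed to 628 to 857 CPM in wild-type solvent, 701 to 818 in wild-type FK228, 438 to 653 in heterozygous solvent and 518 to 611 in heterozygous FK228. The 18 neuron markers summed to 422 to 683, 475 to 812, 256 to 386 and 351 to 497 CPM in the same groups. Both sums were thus lower in the heterozygous groups at the mean, with overlap between the solvent groups for the hair cell sum only. Between the FK228 groups it was the neuron sum only that overlapped. Myo6 alone made up 204 to 414 CPM of the hair cell sum. That sum had a higher mean with FK228 in both genotypes, while more of its 20 markers fell than rose. Macrophage markers summed to 535 to 627 and 352 to 539 CPM in the solvent groups and to 63.9 to 80.5 and 43.5 to 59.3 with FK228. Schwann cell markers summed to 438 to 538 and 448 to 513 CPM in solvent and to 220 to 260 and 207 to 266 with FK228. In bulk RNA, fewer cells of a type and less RNA per cell cannot be told apart. Wild-type solvent library 1 and heterozygous solvent library 4 had the lowest shares of reads outside genes, 11.7% and 11.2% against 13.97% to 22.2% in the others. Rest itself was measured at gene level, which cannot show a deleted exon. Its level was 75.2 to 86.4 CPM in wild-type solvent and 78.1 to 94.8 CPM in heterozygous solvent.

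**Figure D1:**
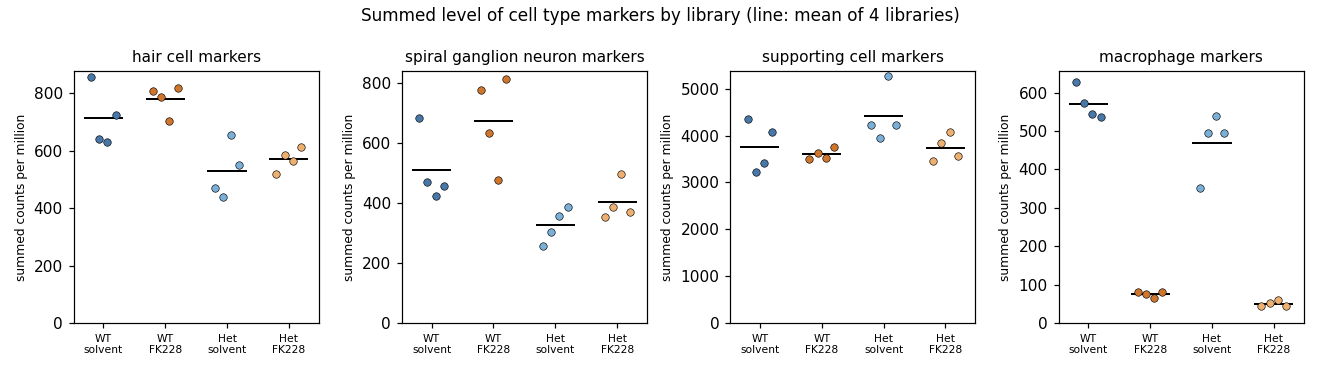
Summed CPM of hair cell, spiral ganglion neuron, supporting cell and macrophage markers (vertical axes, starting at 0) in each library, by group on the horizontal axis. Points are libraries and lines are means of 4 libraries. The macrophage sum is below 81 CPM in all 8 FK228 libraries and above 351 CPM in all 8 solvent libraries.

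Without drug, the wild-type cultures held these factors at levels that ranged from abundant to barely detected. Per kilobase of exon, Isl1 was highest at 39.2 ± 6.43 CPM per kb (SD, n = 4), followed by Pou4f3 at 13.8 ± 1.98, Ikzf2 at 7.18 ± 0.912 and Pou4f1 at 2.01 ± 0.176. Their library ranges did not overlap from one neighbour to the next. Lhx3 (1.32 ± 0.197 CPM per kb), Atoh1 (0.939 ± 0.218) and Gfi1 (0.729 ± 0.145) formed a lower tier in which each neighbour overlapped the next. Barhl1 (0.216 ± 0.0703 CPM per kb), Pou4f2 (0.122 ± 0.117) and Insm1 (0.0280 ± 0.0249) were at the bottom, and their ranges also overlapped. With heterozygous solvent cultures the first 4 places were the same, and Pou4f1 overlapped Atoh1, then at 1.39 ± 0.517 CPM per kb. With FK228, Pou4f1 took second place behind Isl1, at 20.3 ± 3.78 CPM per kb in wild type and 17.9 ± 2.21 in the heterozygotes, and it stood above Pou4f3 in every FK228 library.

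**Figure D2:**
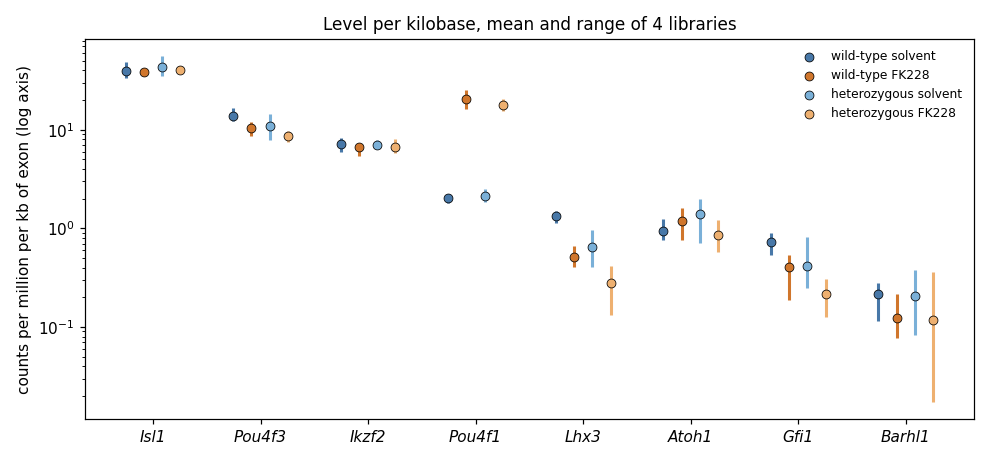
Mean level (points) and range over 4 libraries (bars) of the 8 factors tested, in CPM per kilobase of exon on a log axis, ordered by their mean in wild-type solvent. Pou4f1 moves from 2.01 to 20.3 CPM per kb with FK228 in wild type, while Isl1 and Ikzf2 keep overlapping ranges in all 4 groups.

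FK228 raised Pou4f1 about 10-fold in wild-type and about 8-fold in heterozygous cultures, the only rise called among the 8 tested. Lhx3 fell in both genotypes, and Pou4f3 fell slightly in wild type. In wild type, 3 of the 8 factors tested passed the threshold (edgeR quasi-likelihood test, adjusted p under 0.05), 1 higher and 2 lower, where 49.0% of all genes tested passed, 23.7% higher and 25.3% lower. In the heterozygotes 2 of 8 passed, 1 higher and 1 lower, against 48.4% of all genes, 23.8% higher and 24.7% lower. At these background shares, the number of factors called is not a result about the factors, and the sizes and directions below are what the data give.

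**Figure D3:**
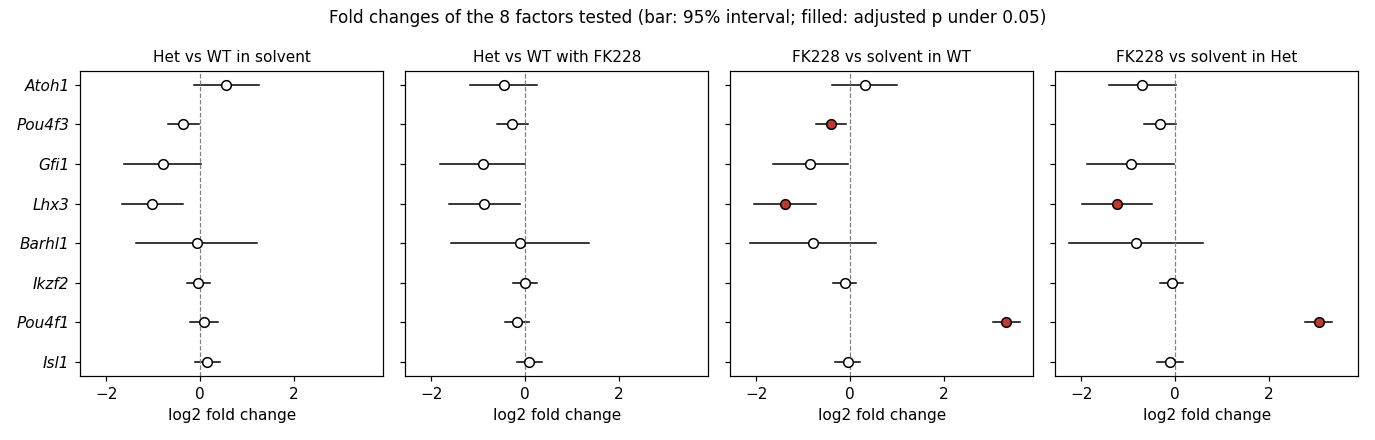
Log2 fold changes (horizontal axis) of the 8 factors tested, with 95% intervals, in the 2 genotype comparisons and the 2 FK228 comparisons. Filled points have an adjusted p under 0.05: Pou4f1 at 3.33 and 3.07, Lhx3 at -1.38 and -1.24, and Pou4f3 at -0.40 in wild type.

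Pou4f1 lies at chr14:104461676-104467999 on the minus strand (GRCm38) and encodes a POU homeodomain activator of sensory neuron genes. Its level was 9.54, 9.19, 10.4 and 8.39 CPM in wild-type solvent and 93.9, 76.0, 90.2 and 118 CPM in wild-type FK228. Heterozygous cultures had 8.88, 8.71, 10.6 and 11.6 CPM in solvent and 79.0, 87.2, 72.4 and 96.2 CPM with FK228. Every FK228 library was above every solvent library, and the 2 genotypes overlapped under both conditions. The log2 fold change was 3.33 ± 0.14 (SE; 10.1-fold, adjusted p = 2.17e-11) in wild type and 3.07 ± 0.14 (8.41-fold, adjusted p = 2.9e-11) in the heterozygotes. Among the 17125 genes it ranked 2 by p-value and 77 by log2 fold change in wild type, and 7 and 148 in the heterozygotes. The difference between the 2 FK228 effects was -0.26 (95% interval -0.66 to 0.13, adjusted p = 0.952, edgeR interaction term), which did not pass the threshold.

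The summed neuron markers overlapped between FK228 and solvent in both genotypes. A large part of this sum came from the neurofilament genes Nefl and Nefm. They averaged 186 and 205 CPM in wild-type FK228, where the mean sum was 673 CPM. Of the 18 neuron markers, 6 rose and 6 fell with FK228 in wild type, where 23.7% of all genes rose and 25.3% fell. In the heterozygotes 8 rose and 4 fell, where 23.8% of all genes rose and 24.7% fell. Snap25, a SNARE protein of the synapse, rose by 1.39 ± 0.22 and 3.50 ± 0.28 on the log2 scale. Slc17a7, the vesicular glutamate transporter VGLUT1, went from 27 counts in the 4 wild-type solvent libraries to 177 with FK228 (log2 change 2.83 ± 0.42, adjusted p = 2.47e-05, edgeR). In the heterozygotes Slc17a7 went from 3 counts in solvent to 126 with FK228. The difference between its 2 FK228 effects was 2.44 ± 0.82 (adjusted p = 0.642, edgeR interaction term). Ntrk2, the neurotrophin receptor TrkB of spiral ganglion neurons, fell by 1.26 ± 0.16 and 1.43 ± 0.17. The part of neuron number in the Pou4f1 values was not tested. The neighbouring gene Rnf219, 9.54 kb away and the only other tested gene within 500 kb, did not pass (log2 change -0.20, adjusted p = 0.162 in wild type and -0.15, adjusted p = 0.311 in the heterozygotes).

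The 250 bases before the Pou4f1 start are shown because this gene had the largest change of the set. They lie at chr14:104468000-104468249, minus strand, and come from RefSeq on GRCm38.p6. Capitals mark a pair of overlapping GC boxes (GGGCGG, here on the other strand) and 1 E-box (CAGCTG).
Pou4f1: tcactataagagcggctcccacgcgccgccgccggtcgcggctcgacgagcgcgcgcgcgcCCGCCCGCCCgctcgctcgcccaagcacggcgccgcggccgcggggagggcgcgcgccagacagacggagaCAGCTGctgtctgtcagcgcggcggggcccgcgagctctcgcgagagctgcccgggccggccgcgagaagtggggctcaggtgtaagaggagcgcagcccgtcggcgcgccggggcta
The stretch is 78.0% G and C, against a median of 52.4% over 32851 promoters of that length. GGGCGG, searched on both strands, occurs in 32.7% of those promoters and CAGCTG in 4271 of them, so neither is rare. Promoter sequences were matched for 7 of the 10 factors, all but Pou4f3, Insm1 and Ikzf2.

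No rise was called for the other POU4 genes. Pou4f3 (chr18:42394539-42397249, plus strand), the hair cell paralog, stood at 39.9, 29.9, 29.7 and 33.3 CPM in wild-type solvent and 28.5, 25.1, 20.8 and 26.1 CPM in wild-type FK228. Heterozygous libraries had 22.8, 19.0, 34.5 and 27.5 CPM in solvent and 19.2, 22.6, 23.4 and 18.02 CPM with FK228. The wild-type groups did not overlap, and the heterozygous groups did. The log2 fold change with FK228 was -0.40 ± 0.16 (adjusted p = 0.0406, edgeR) in wild type and -0.32 ± 0.16 (adjusted p = 0.111) in the heterozygotes. The wild-type call was lost when solvent library 1 or 4, or FK228 library 2, 4 or 7, was left out, with adjusted p between 0.061 and 0.141. When wild-type solvent library 1 and heterozygous solvent library 4 were both left out, it was -0.29 (adjusted p = 0.0884).

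Pou4f2 (chr8:78433010-78436645, minus strand) was too low to be tested. It had 21, 3, 3 and 5 counts in wild-type solvent and 4, 11, 1 and 7 in wild-type FK228. It had 1, 0, 1 and 2 counts in heterozygous solvent and 0, 0, 1 and 1 in heterozygous FK228. The 8 wild-type libraries, which were also the deeper ones, thus held most of its 61 counts. Library 1 of the wild-type solvent group held 21 of them. With no low-count filter, the log2 difference between genotypes was -2.43 ± 0.92 without the drug and -2.98 ± 1.04 with it (adjusted p of 0.331 and 0.217, edgeR). Expressed per kilobase, Pou4f1 made up 10.8% to 15.2% of the 3 POU4 genes in wild-type solvent and 60.4% to 69.7% with FK228. In the heterozygotes the share was 13.7% to 19.1% in solvent and 61.3% to 73.2% with FK228.

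**Figure D4:**
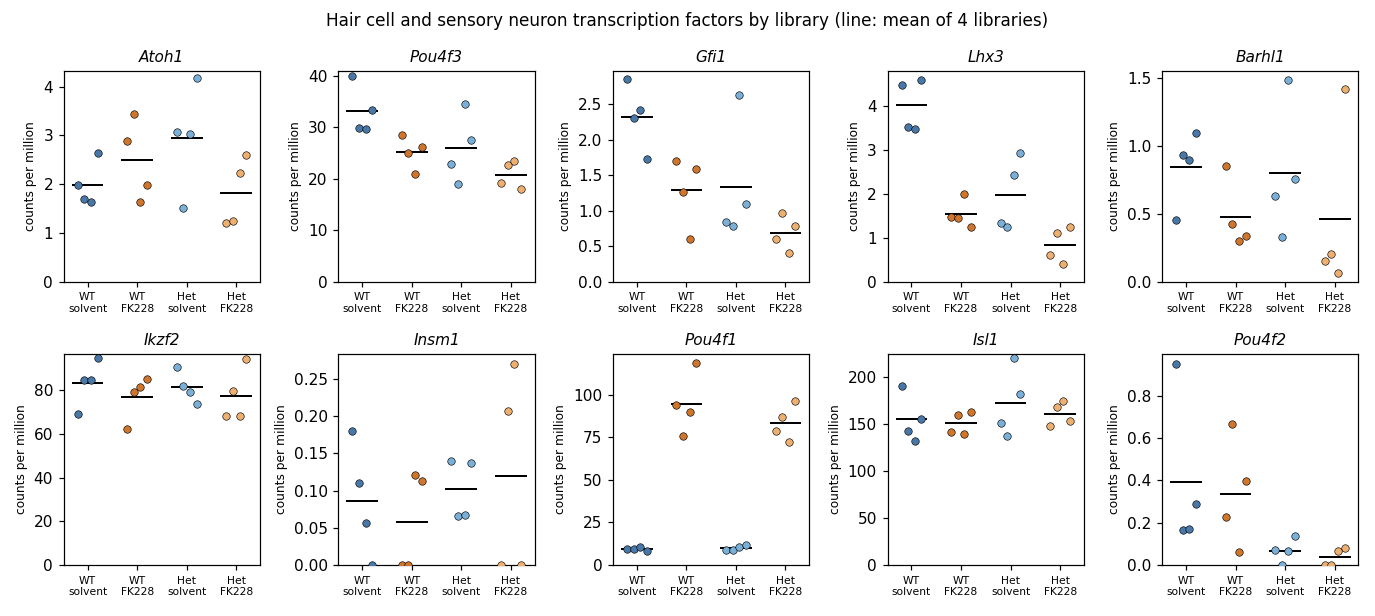
CPM of each of the 10 factors in each library (points) with the mean of 4 libraries (lines), by group, on axes that start at 0. Pou4f1 separates FK228 from solvent in both genotypes, Lhx3 has its 4 wild-type solvent libraries above all 12 others, and Insm1 and Pou4f2 stay under 1 CPM.

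Lhx3 fell with FK228 in both genotypes, and its lowest group mean was that of treated heterozygotes. The gene lies at chr2:26200212-26208289 on the minus strand. It stood at 4.47, 3.52, 3.48 and 4.60 CPM in wild-type solvent and at 1.48, 1.45, 1.99 and 1.25 CPM in wild-type FK228. In the heterozygotes it stood at 1.33, 1.24, 2.42 and 2.94 CPM in solvent and at 0.605, 1.10, 0.405 and 1.26 CPM with FK228. All 4 wild-type solvent libraries were above the other 12, and heterozygous solvent overlapped both FK228 groups. The log2 fold change with FK228 was -1.38 ± 0.31 (2.60-fold lower, adjusted p = 0.00138, edgeR) in wild type and -1.24 ± 0.36 (2.36-fold lower, adjusted p = 0.00802) in the heterozygotes. Both kept their direction and call in all 10 alternative analyses and in all 16 fits that left out 1 library. The counts are low, 62 to 99 per library in wild-type solvent and 6 to 16 in heterozygous FK228. An antisense gene, Gm27196, shares 6.17% of the exon length of Lhx3, and unstranded counting cannot assign reads in that stretch.

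Among the RefSeq windows of the 7 matched factors, 1 window held both parts of the REST element (RE1, the binding motif of REST), that of the first Lhx3 start. The parts were searched as CAGCACC and GGACAG, 2 bases apart, on both strands. This pair occurs in 11 of the 32851 promoters, 0.0335%. It is shown in capitals, with the bases between the parts, within 30 bases at chr2:26208269-26208298, minus strand, GRCm38.p6.
Lhx3: gcctccttCAGCACCGCGGACAGcgccagc
The pair lies 41 to 27 bases before the RefSeq start and spans the first base of the GENCODE transcript, at 26208289. The match was looked for after the Lhx3 values were known, and it is a description of these letters only. Of the 10 genes with such a window, 6 were tested, and none passed in either genotype comparison (edgeR). With FK228 in wild type, 3 of the 6 rose and Lhx3 fell, where 23.7% of all genes rose and 25.3% fell. In the heterozygotes 5 rose and Lhx3 fell, where 23.8% of all genes rose and 24.7% fell. Osbp2 rose by 2.87 ± 0.32 and 2.58 ± 0.34 on the log2 scale, Sptbn4, a spectrin of axons, by 2.22 ± 0.57 and 2.05 ± 0.65, and Ogdhl by 0.52 ± 0.15 and 0.53 ± 0.15. Fam163b and Lca5 rose in the heterozygotes, by 3.39 ± 1.03 and 0.35 ± 0.11. Lhx3 was thus the 1 gene of these 6 that fell with FK228 in either genotype.

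The LIM paralog Lhx4 went the other way. It had 0 to 3 counts per library in wild-type solvent and 21 to 35 in wild-type FK228 (adjusted p = 5.6e-06, edgeR). It had 0 to 1 counts in heterozygous solvent and 13 to 23 in heterozygous FK228 (adjusted p = 4.53e-06). Its mean with FK228 was 1.72 ± 0.325 CPM in wild type and 1.42 ± 0.280 CPM in the heterozygotes (SD, n = 4). Ldb1, the LIM-domain binding cofactor, fell in both genotypes (log2 change -0.52 ± 0.15 and -0.43 ± 0.16). Of 18 listed paralogs and cofactors of the factors, 11 were tested. In wild type 1 rose and 3 fell, where 23.7% of all genes rose and 25.3% fell. In the heterozygotes 1 rose and 4 fell, where 23.8% of all genes rose and 24.7% fell. The list medians were -0.25 and -0.54 against -0.0058 and 0.00082 over all genes. Pou3f4, a POU factor of the otic mesenchyme, fell by 1.19 ± 0.09 and 1.20 ± 0.09. It is itself 1 of the 10 mesenchyme markers. The other 9 summed to 3538 to 4602 CPM in wild-type solvent and to 2023 to 2564 CPM with FK228, and their part in the Pou3f4 values was not tested.

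Gfi1 and Barhl1 had lower means with FK228 that did not pass the threshold. Gfi1 (chr5:107716657-107726036, minus strand) stood at 2.85, 2.31, 2.41 and 1.72 CPM in wild-type solvent and 1.70, 1.27, 0.604 and 1.58 CPM in wild-type FK228. In the heterozygotes it stood at 0.839, 0.786, 2.63 and 1.10 CPM in solvent and 0.605, 0.965, 0.405 and 0.787 CPM with FK228. The wild-type groups did not overlap, by a margin of 1.72 to 1.70 CPM. The heterozygous groups overlapped. The log2 change was -0.84 ± 0.38 (adjusted p = 0.0773, edgeR) in wild type and -0.95 ± 0.44 (adjusted p = 0.0828) in the heterozygotes. In wild type it passed when heterozygous solvent library 4 was left out of the shared fit (adjusted p = 0.0368) or when only the 2 groups were fitted (adjusted p = 0.047). It also passed with spike-in scaling (adjusted p = 0.0364). Groups that did not overlap were seen for 4 of the 8 factors tested in wild type (Pou4f1, Pou4f3, Gfi1 and Lhx3). In the heterozygotes they were seen for 1 (Pou4f1). The shares of all genes tested were 44.7% and 42.6%.

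Barhl1 (chr2:28907679-28916668, minus strand) had 1 to 22 counts per library. It stood at 0.452, 0.935, 0.897 and 1.09 CPM in wild-type solvent and 0.851, 0.423, 0.302 and 0.340 CPM in wild-type FK228. In the heterozygotes it stood at 0.629, 0.327, 1.48 and 0.753 CPM in solvent and 0.151, 0.207, 0.0676 and 1.42 CPM with FK228. The groups overlapped in both genotypes, and the heterozygous FK228 value rested on 1 library. The log2 change was -0.79 ± 0.64 (adjusted p = 0.323) and -0.83 ± 0.68 (adjusted p = 0.335, edgeR). Without heterozygous FK228 library 5 it was -2.43 (adjusted p = 0.00712) in the heterozygotes.

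Atoh1 (chr6:64729125-64731245, plus strand, a single exon) did not pass in any comparison. It stood at 1.99, 1.71, 1.63 and 2.64 CPM in wild-type solvent and 2.90, 3.44, 1.63 and 1.98 CPM in wild-type FK228. In the heterozygotes it stood at 3.08, 1.51, 3.03 and 4.18 CPM in solvent and 1.21, 1.24, 2.23 and 2.60 CPM with FK228. All 4 groups overlapped. FK228 left Atoh1 at a log2 change of 0.32 ± 0.33 in wild type and -0.69 ± 0.34 in the heterozygotes (adjusted p = 0.443 and 0.102, edgeR). The difference between these effects was -1.02 ± 0.48, with an unadjusted p of 0.0464 and an adjusted p of 0.853. No factor passed for this difference between genotypes, where 0.0234% of all genes passed, and Atoh1 was the 1 of 8 with an unadjusted p under 0.05, against 5.81% of all genes.

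Isl1 and Ikzf2, 2 of the 3 factors with the highest levels per kilobase in the solvent groups, did not pass in any comparison. Isl1 (chr13:116298281-116309689, minus strand) stood at 191, 143, 132 and 156 CPM in wild-type solvent and 141, 159, 140 and 163 CPM with FK228. In the heterozygotes it stood at 152, 138, 220 and 183 CPM in solvent and 148, 169, 175 and 153 CPM with FK228. The log2 change with FK228 was -0.04 (95% interval -0.31 to 0.22) in wild type and -0.10 (-0.37 to 0.17) in the heterozygotes. Ikzf2 (chr1:69531214-69687245, minus strand) ranged from 62.2 to 94.9 CPM over all 16 libraries. Its log2 change was -0.11 (95% interval -0.36 to 0.14) in wild type and -0.07 (-0.32 to 0.18) in the heterozygotes. Both intervals include 0 and reach no further than -0.37. Insm1 (chr2:146221921-146225020, plus strand) had 0 to 4 counts per library and 24 in all, with 7, 4, 6 and 7 in the 4 groups, and in the fit with no low-count filter it passed in no comparison. At this depth only large differences in Insm1 could be detected.

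The heterozygous genotype alone changed none of the 8 factors tested past the threshold, in solvent or with FK228 (edgeR, adjusted p under 0.05), where 2.03% and 2.14% of all genes passed. At an unadjusted p under 0.05, 2 factors were below in solvent, Lhx3 and Pou4f3, and 1 with FK228, Lhx3, where 11.3% and 12.9% of all genes had such a p. DESeq2 also called none of the 8 in either comparison. Lhx3 had the largest estimate in solvent, -1.02 ± 0.31 on the log2 scale (2.02-fold lower, adjusted p = 0.127, edgeR). All 4 heterozygous solvent libraries were below the lowest wild-type solvent library. With FK228 the estimate for Lhx3 was -0.87 ± 0.36 (adjusted p = 0.294). Pou4f3 was at -0.36 ± 0.16 (adjusted p = 0.384) in solvent and -0.27 ± 0.16 with FK228. Gfi1 was at -0.80 ± 0.39 (adjusted p = 0.462) and -0.90 ± 0.43 (adjusted p = 0.397). Of the 8 factors tested, only Lhx3 had groups that did not overlap in solvent, against 6.23% of all genes tested. With FK228 none of the 8 did, against 8.84%. Pou4f2, under the filter, also did not overlap in solvent, at 0 to 2 counts against 3 to 21 in wild type.

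Within the heterozygous solvent group, libraries 4 and 5 had 11.2% and 13.97% of reads outside genes, against 21.2% and 19.2% in libraries 1 and 2. Their hair cell marker sums were 653 and 549 CPM, against 470 and 438 CPM. Pou4f1, Pou4f3, Gfi1, Lhx3, Barhl1 and Isl1 were also higher in both of them than in libraries 1 and 2. The part of these library differences in the values of the factors was not tested. Without that library 4 and wild-type solvent library 1, the genotype estimate for Lhx3 in solvent was -1.06 (adjusted p = 0.241).

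The amount of RNA relative to the ERCC spike-ins differed between groups, at 0.312% to 0.393% of counts in heterozygous FK228 and 0.156% to 0.237% in the other 3 groups. Scaled by the spike-ins, the median gene moved by -0.72 on the log2 scale with FK228 in the heterozygotes and by -0.16 in wild type. On that scale Pou4f1 still rose, by 3.17 in wild type and 2.36 in the heterozygotes, and the other 7 factors tested fell in the heterozygotes, Isl1 by 0.81 and Ikzf2 by 0.80. Between genotypes with FK228, all 8 estimates were below 0 on that scale and 7 of the 8 passed, all but Barhl1, where the median gene stood at -0.74. The directions of Isl1 and Ikzf2 between genotypes with FK228 thus depended on the scaling.

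Some hair cell and neuron effector genes passed the threshold between genotypes, where 2.03% of all genes passed in solvent and 2.14% with FK228. Of the 20 hair cell markers, 3 fell and none rose in solvent: Otof, the calcium sensor of the hair cell synapse (log2 change -1.24 ± 0.11), the calcium-binding protein Cabp2 (-2.62 ± 0.40) and parvalbumin, Pvalb (-1.10 ± 0.22). Of the 18 neuron markers, 6 fell and none rose, among them Snap25 (-3.25 ± 0.27), the neuronal splicing factor gene Rbfox3 (-1.63 ± 0.26) and the heavy neurofilament gene Nefh (-1.74 ± 0.28). Of 14 tested genes listed as known or proposed targets of ATOH1 and POU4F3, 1 fell, Lhfpl5, a subunit of the mechanotransduction complex (-0.77 ± 0.20, adjusted p = 0.0473, edgeR). With FK228, 4 hair cell markers fell, among them Otof (-1.49 ± 0.12), Cabp2 (-2.53 ± 0.46) and Calb2, the calcium-binding protein calretinin (-0.89 ± 0.18). Also with FK228, 3 neuron markers fell, Nefl (-1.47 ± 0.26), Snap25 (-1.14 ± 0.22) and Nefm (-1.20 ± 0.24). No target passed there, and Lhfpl5 was at -0.76 ± 0.20 (adjusted p = 0.0571, edgeR). The FK228 effect on Snap25 differed between genotypes by 2.12 (adjusted p = 0.0429, edgeR interaction term), the 1 listed gene to pass for that difference. In solvent, no member passed among 13 E proteins, Id and Hes/Hey genes, 17 other regulators of hair cell fate, 7 other neuronal factors and 11 paralogs and cofactors. In those lists the smallest p-values belonged to Tcf4 (adjusted p = 0.43), Eya1 (0.14), Myt1 (0.43) and Pou2f1 (0.38, edgeR).

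Treated heterozygous cultures were compared directly with untreated wild type, sharing libraries with the comparisons above. Of the 8 factors, 4 passed, 1 higher and 3 lower, where 50.7% of all genes passed, 24.9% higher and 25.9% lower. Pou4f1 was 8.92-fold higher (log2 change 3.16 ± 0.14, adjusted p = 1.21e-11, edgeR). Lhx3 was 4.76-fold lower (-2.25 ± 0.34, adjusted p = 2.89e-05), Gfi1 3.35-fold lower (-1.75 ± 0.42, adjusted p = 0.00202) and Pou4f3 1.59-fold lower (-0.67 ± 0.16, adjusted p = 0.0017). Groups did not overlap for these 4 of the 8 factors tested, against 45.7% of all genes tested. They did not overlap for Pou4f2 either, which was under the filter. Lhx3, Gfi1 and Pou4f3 had their lowest group mean in treated heterozygotes, as did Atoh1, Barhl1 and Pou4f2. Atoh1, Barhl1, Ikzf2 and Isl1 did not pass. Pou4f2 had 2 counts in the 4 treated heterozygous libraries against 32 in wild-type solvent. With no low-count filter its adjusted p was 0.0155. Of the 20 hair cell markers, 13 fell and 1 rose in this comparison, led by Otof (-2.07 ± 0.12), and of the 18 neuron markers 7 fell and 3 rose.

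Gene lists here and in the next paragraph are read against the shares of all genes that changed with FK228. In wild type 23.7% rose and 25.3% fell, and in the heterozygotes 23.8% rose and 24.7% fell. Of 13 E proteins, Id and Hes/Hey genes, partners and antagonists of ATOH1, 4 fell in wild type and 3 in the heterozygotes. These were shares near the background for falls, and none of the 13 rose. The list medians were -0.24 and -0.26. Heyl, a Notch target, fell by 0.98 ± 0.13 in both genotypes, Id3 by 0.73 ± 0.11 and 0.67 ± 0.11, and the E protein gene Tcf4 by 0.45 ± 0.08 and 0.54 ± 0.08. Of 17 other regulators of hair cell fate, 2 rose and 9 fell in each genotype. Nr2f1 and Nr2f2, nuclear receptors of the COUP-TF type, fell by 0.89 ± 0.10 and 0.66 ± 0.10 in wild type, and Rorb, another nuclear receptor, rose by 1.01 ± 0.11. In the heterozygotes Nr2f1 fell by 1.37 ± 0.10, Nr2f2 by 0.85 ± 0.10 and Lmo4, a LIM-only protein, by 0.56 ± 0.07.

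Of 14 tested genes listed as targets of ATOH1 and POU4F3, 2 rose and 6 fell in wild type, and 3 rose and 5 fell in the heterozygotes. Caprin1, an RNA-binding protein, fell by 0.63 ± 0.09 and 0.64 ± 0.09, and Rasd2 fell by 1.47 ± 0.28 in wild type. The motor gene Myo6 rose by 0.48 ± 0.10 and 0.55 ± 0.10. Of the 20 hair cell markers, 1 rose and 10 fell in wild type, and 1 rose and 9 fell in the heterozygotes. The lists are not separate: Myo7a, Myo6 and Espn are both listed targets and hair cell markers. Hes6 and Nr2f2 are both listed targets and listed regulators of hair cell fate. Chrna9 and Chrna10, which encode the nicotinic receptor at efferent synapses on hair cells, fell by 2.54 ± 0.38 and 1.81 ± 0.25 in wild type. Ocm, the outer hair cell protein oncomodulin, fell by 0.82 ± 0.15 and 1.25 ± 0.16. Myo6 alone made up 204 to 414 CPM of the summed hair cell level.

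No rise was called among the other factors of sensory and cranial ganglion neurons. Of 21 listed, 7 were tested. None of these rose with FK228, where 23.7% and 23.8% of all genes rose in wild type and in the heterozygotes. Runx1, a Runt-domain factor, fell in wild type (log2 change -1.64 ± 0.31) and in the heterozygotes (-1.79 ± 0.32). Runx1 is also expressed in macrophages, whose markers fell in the same libraries (14 of 14 in each genotype), and the part of those cells in its values was not tested. Neurog1, which starts the otic neuron lineage, had 0 counts in all 16 libraries. Neurod1, which acts after it, had 7 counts in wild-type solvent, 22 in wild-type FK228, 2 in heterozygous solvent and 26 in heterozygous FK228, under the filter.

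For each tested factor, the 3 genes with the most similar profile over the 16 libraries were taken by Pearson's r of log2 CPM. This is a description in which all points share libraries and depth. Group means were not removed, so a step between groups, such as that with FK228, enters r. For Pou4f1 the 3 genes were Tex2 (r = 0.996), Rita1 (0.995) and Slc30a3 (0.993). Slc30a3, a vesicular zinc transporter, averaged 0.0138 CPM in wild-type solvent and 5.74 CPM with FK228. For Pou4f3 they were Grxcr1 (0.936), a stereocilia gene, Oscp1 (0.927) and Coro2b (0.897). For Gfi1 they were Fscn2 (0.918), which bundles actin in stereocilia, Kcna10 (0.902), a potassium channel of hair cells, and Cpe (0.882). For Lhx3 they were Evpl (0.948), Trim28 (0.945) and Ncs1 (0.934), and for Isl1 Fstl1 (0.925), Dkk3 (0.916) and Syt1 (0.911). The correlations were weaker for Atoh1 (at most 0.807, Arhgap10), Barhl1 (at most 0.830, Lrfn4) and Ikzf2 (at most 0.837, Gnas).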

How the data were processed

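RNA from cultured organs of Corti was sequenced in 16 libraries, 4 per group. Per the labels' protocols, cDNA was made with oligo dT and a template switch, amplified and tagmented. Per the submitters' processing notes, STAR 2.5.2a, DESeq2 and GRCm38.p4 were used. The deposited count files hold gene counts from STAR, and the unstranded column was used because the strand columns were near equal (49.8% to 49.9% on strand 1). The authors' table of normalized values, a signal made of counts divided by size factors, served to find the factors and, turned back to whole reads, as an alternative. Reads without a gene, 11.2% to 22.2% of reads, and ERCC spike-ins, 0.156% to 0.393%, were left out.

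Counts were tested with edgeR 4.0.16 in R 4.3.3 (quasi-likelihood, TMM, 4 group means over 16 libraries, minimum count 10 and minimum total 15), with Benjamini-Hochberg adjustment over 17125 genes and a threshold of 0.05. The script was tested on simulated data. DESeq2 1.42.0, RLE factors, no filter, 2-group fits, a replicate block, ERCC scaling, a sex-mix covariate, recovered counts, the omission of 2 libraries and of each library were alternatives; the sum of the strand columns was added after seeing the data. Lengths are union exons of GENCODE M21. The factors and gene lists were chosen with earlier results of these data known. All factors are named, as are, per list and comparison, up to 3 genes with the smallest adjusted p that passed, or the 1 with the smallest p. Rest, Rnf219, Neurog1, Neurod1, Fam163b, Lca5, Ogdhl, Osbp2 and Sptbn4 fall outside that rule and were chosen after their values were seen. Gene list counts are given for the comparisons named in the text, and 1 item of the lists is not reported here.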

Additional observations from a re-analysis of the deposited data

Results flagged for a closer look

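Of 32 groups of 4 libraries checked over the 8 factors tested, 2 held a library far from the other 3, where chance alone flags about 5% of groups. Gfi1 was at 2.63 CPM in heterozygous solvent library 4, against 0.786 to 1.10 CPM in the other 3, a gap of 0.832 of the whole range, just past Dixon's critical value. Barhl1 was at 1.42 CPM in heterozygous FK228 library 5, against 0.0676 to 0.207 CPM in the other 3, a gap of 0.897 of the range. That Barhl1 value rests on 18 counts.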

How the results depend on the processing

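The FK228 effects on Pou4f1 and Lhx3 kept their direction and call in both genotypes under all alternatives run. Low counts limit the precision for Insm1, Pou4f2, Barhl1, Gfi1, Lhx3 and Atoh1, with 24 to 593 counts each over the 16 libraries. With spike-in scaling, 7 factors passed between genotypes with FK228 (12857 genes), 8 for FK228 in the heterozygotes, 3 for the genotype difference in the FK228 effect (4069 genes) and 8 in treated heterozygotes against untreated wild type. With DESeq2, 528 genes passed between genotypes in solvent, 622 with FK228 and 20 for the difference in effect. No filter gave 10 genes for that difference and the omission of 2 libraries 2. Same-numbered libraries did not deviate together (r over 0.1 in 3 of 17 pairs). With the replicate number as a block, 211 and 107 genes passed between genotypes and 0 for the difference in effect, with Pou4f3 in wild type at -0.42 (adjusted p = 0.088, edgeR).

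Values that changed sign were near 0, moved with the scaling or moved with the libraries left out. Between genotypes with FK228, Ikzf2 was at -0.0046 with no filter, -0.019 with the replicate block and -0.74 with spike-in scaling, and Isl1 at -0.65 with that scaling. Between genotypes in solvent, spike-in scaling put Pou4f1 at -0.10 and Isl1 at -0.015. The sex-mix covariate put Pou4f1 there at -0.0033, Barhl1 at 0.049 and Ikzf2 at 0.0094, and Atoh1 at 0.046 in treated heterozygotes against untreated wild type. Isl1 in the latter comparison was at -0.82 with spike-in scaling. For the difference in the FK228 effect, the block put Lhx3 at -0.029 and Isl1 at 0.032, and spike-in scaling put Pou4f3 at -0.47, Lhx3 at -0.40 and Ikzf2 at -0.54. Without the 2 libraries with the fewest reads outside genes, Gfi1 was at 0.33 and Barhl1 at 0.65 for that difference, and Isl1 at 0.077 and 0.030 for FK228 in wild type and the heterozygotes. The causes were not tested.

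Leaving out each library in turn gave 188 to 421 genes between genotypes with FK228, 2 to 6 for the difference in effect, and 2 to 5 factors for FK228 in the heterozygotes. The 5 came without heterozygous solvent library 2, when Atoh1 (-0.91), Pou4f3 (-0.44) and Gfi1 (-1.14) also passed. The lowest genotype count, 188, came without wild-type FK228 library 7. Between genotypes in solvent, Barhl1 ranged from -0.55 to 0.19 and Ikzf2 from -0.11 to 0.033. Between genotypes with FK228, Barhl1 ranged from -1.71 to 0.33 and Ikzf2 from -0.099 to 0.066. Isl1 ranged from -0.11 to 0.070 for FK228 in wild type and from -0.20 to 0.034 in the heterozygotes. For the difference in effect, the ranges were -0.040 to 0.25 for Pou4f3, -0.34 to 0.45 for Gfi1, -0.10 to 0.40 for Lhx3, -1.64 to 0.45 for Barhl1, -0.064 to 0.12 for Ikzf2 and -0.17 to 0.078 for Isl1. In treated heterozygotes against untreated wild type, Atoh1 ranged from -0.34 to 0.029 and Isl1 from -0.020 to 0.16.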
